A study of Sus scrofa with 8 samples.

Results

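The fall of 6 genes in the liver of pigs on a steatotic diet is described here: PEBP4, ETNPPL, MOXD1, NANOS1, DCST1 and AGR2, out of 18103 listed genes and new transcripts. They were selected by their symbols because their FPKM values (fragments counted relative to gene length and library size) had fallen strongly between the initial state and steatosis in these same 8 libraries, while belonging to neither the cholesterol nor the metallothionein genes. The values that chose them are therefore given as a description, with no test, and tests are kept for other genes. Hepatic RNA came from male Landrace x Large White pigs, in pools of 2 animals. A first set of 4 pools was the initial state, biopsied by laparotomy from healthy pigs of 4 months on a control diet. The other 4 pools came, by the study's account, from the same animals after 2 months of a diet rich in saturated fat, fructose, cholesterol and cholate and deficient in methionine and choline, when the pigs were 6 months old and had been euthanized. All livers were taken after an overnight fast and under anaesthesia, and no group of this age stayed on the control diet, so that diet, age and the way of sampling cannot be told apart.

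The genes belong to unrelated families. Phosphatidylethanolamine, a main phospholipid of hepatocyte membranes, is made from ethanolamine by way of phosphoethanolamine, and the liver can methylate it to phosphatidylcholine, the lipid whose precursor choline was deficient in the diet. ETNPPL breaks phosphoethanolamine down and thereby withdraws it from that route, and PEBP4 is a member of the phosphatidylethanolamine-binding proteins, whose best known relative PEBP1 binds RAF kinases. MOXD1 resembles dopamine beta-hydroxylase, a copper-dependent monooxygenase. AGR2 is a protein disulfide isomerase of the endoplasmic reticulum that mucus-secreting epithelia use to fold mucins. NANOS1 is an RNA-binding zinc finger protein that works with Pumilio proteins to repress messenger RNAs, and DCST1 is a membrane protein with a DC-STAMP domain that has been linked to the turnover of STAT2, a transcription factor of the interferon response.

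The libraries were similarly deep, between 90.6% and 100% of the deepest one as judged from the smallest steps between FPKM values, and all 10 hepatocyte markers checked were present, with ALB at the highest level. The first pool of the initial state stood apart. Its 13 listed stomach mucosa genes summed to 1550 FPKM, against 6 to 29.6 in the other initial pools and 6.28 to 6.7 in steatosis, and 14 skeletal muscle genes summed to 3204 FPKM, against 2.01 to 24.4 and 0.87 to 1.98. Each gene of both lists was highest in that pool. For this reason the differences of the 6 genes are given with and without initial pool 1. In a bulk liver sample, fewer cells of a type and less RNA per cell cannot be told apart.

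The primer pairs that the study designed for 4 of the 6 genes are shown because they mark what its RT-qPCR read. In that RT-qPCR of the same experiment, PEBP4 fell less than by sequencing. ETNPPL, MOXD1 and NANOS1 fell by similar amounts with both methods. The study's regression experiment, on other pigs, went the other way for PEBP4, ETNPPL and MOXD1. Their RT-qPCR levels there were higher in steatosis than after the return to the control diet, and NANOS1 was not determined. The primers are written 5′ to 3′ in lower case, the sense primer first, with no part singled out in capitals.
ETNPPL sense: gtttggccgtcctggatgta
ETNPPL antisense: aaaaaggccaacacccctga
MOXD1 sense: ccaagtaccacgcctccaat
MOXD1 antisense: gtccagaacactgtcgctga
NANOS1 sense: tgcaggtgtgtgtgttttgc
NANOS1 antisense: cgggcagtacttgatggtgt
PEBP4 sense: tggagacattggctggtgac
PEBP4 antisense: gcagttatctccgcttgggt

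In 6 of 6 genes, every steatosis pool lay below every initial pool. The same separation was found for 2.06% of all listed genes, and since the 6 were chosen for this contrast nothing is read from the count. What the genes did not share was their level: the initial mean of ETNPPL exceeded that of 84.6% of the tested genes and that of AGR2 63.3%, but PEBP4 stood at 35%, MOXD1 at 26.5%, NANOS1 at 21.2% and DCST1 at only 2.76%. The place of AGR2 rested on initial pool 1, since its initial mean was 7.58 FPKM with that pool and 1.16 FPKM without it. FPKM is scaled by gene length, so levels can be set side by side. The median of all tested genes was higher in steatosis by 0.25 on the log2 scale, and the falls are accordingly larger when they are read relative to it.

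**Figure D1:**
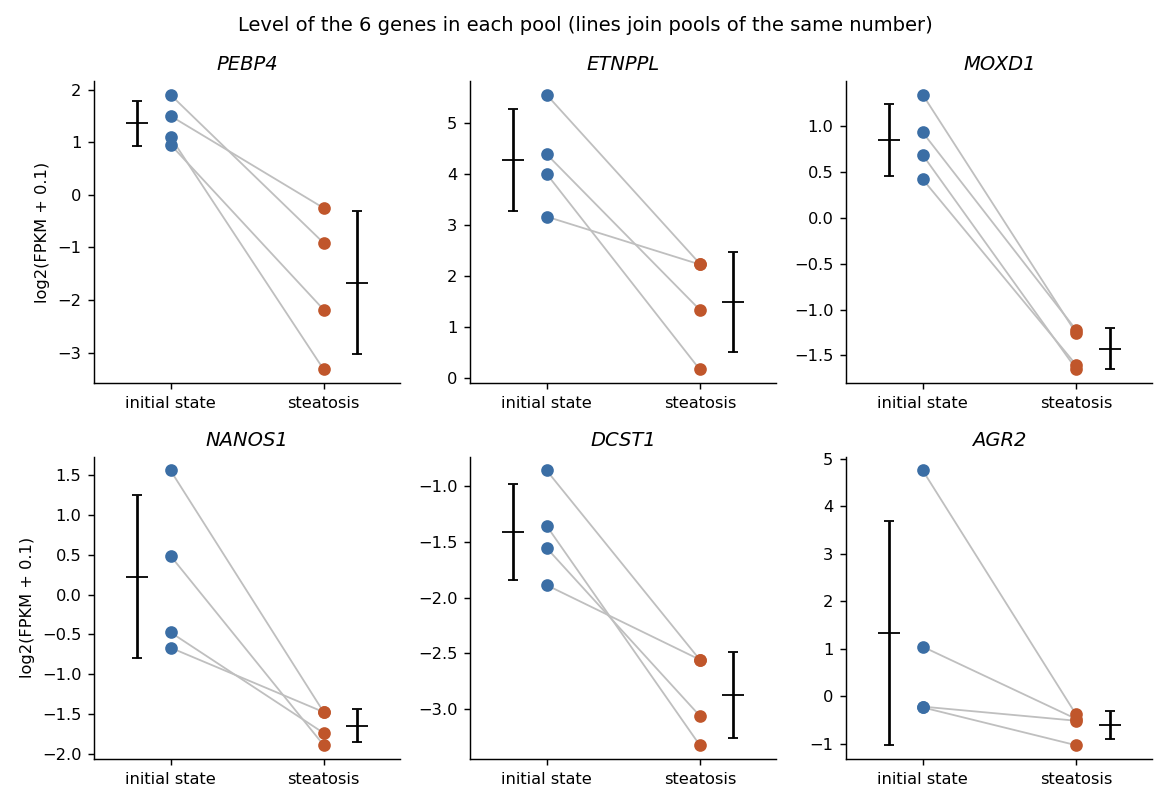
Level of each gene as log2(FPKM + 0.1) in the 4 initial pools and the 4 steatosis pools, 1 panel per gene, with grey lines joining pools of the same number and black bars showing mean ± SD. All lines descend, MOXD1 does so almost in parallel, and 1 initial pool of AGR2 sits far above the rest. Pools joined by a line need not hold the same animals.

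ETNPPL, the phosphoethanolamine lyase, was the most abundant of the 6. The gene lies at chr8:113363047-113384783 (Sscrofa11.1). Its 4 initial pools held 46.88, 20.86, 8.89 and 15.96 FPKM, and the steatosis pools held 4.65, 2.44, 4.60 and 1.03 FPKM. The initial pools differed widely among themselves, by 5.27 times from lowest to highest, yet the lowest still exceeded the highest steatosis pool 1.91 times. Mean expression went from 23.1 ± 16.6 to 3.18 ± 1.77 FPKM (SD, n = 4 pools each), which left 13.7% of the initial level. On the scale of log2(FPKM + 0.1) the difference was -2.78 (SE 0.70), or -3.03 relative to the median gene. Without initial pool 1 it was -2.35 (SE 0.61), with 20.9% left.

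PEBP4 showed the greatest fall of the 6 on the log2 scale. It occupies chr14:6966861-7173255, with 12 transcripts of which 6 were new in the authors' assembly, and overlaps a long noncoding RNA and a pseudogene with which reads could be shared. The initial pools held 3.64, 1.84, 2.73 and 2.04 FPKM. The steatosis pools held 0.43, 0.12 and 0.74 FPKM, and the fourth was listed at 0. Initial pools were thus close to each other, and it was the steatosis pools that scattered. A single fragment was worth about 0.06 FPKM for this gene, so the steatosis pools rested on about 7.1, 2 and 12.4 fragments and none in pool 4, where 3 fragments, the limit that a count of 0 allows, would be 0.18 FPKM. Over all pools about 170 fragments stood against 22, a ratio of 12.7%, given as a description that leaves out the spread between pools. The means were 2.56 ± 0.813 and 0.323 ± 0.332 FPKM, with a log2 difference of -3.03 (SE 0.71). Leaving out initial pool 1 changed it little, to -2.85 (SE 0.70).

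MOXD1, the DBH-like monooxygenase at chr1:31282491-31367589, was the most even of the set. Initial pools held 1.24, 1.81, 1.51 and 2.44 FPKM and steatosis pools held 0.23, 0.33, 0.22 and 0.32 FPKM. The groups were far apart, the lowest initial pool being 3.76 times the highest steatosis pool, the widest such gap of the 6. Expression went from 1.75 ± 0.516 to 0.275 ± 0.058 FPKM, or 15.7% left. Its log2 difference of -2.28 had the smallest SE, 0.23, and it was the only one of the 5 genes over the filter on low values whose fall grew without initial pool 1, to -2.42 (SE 0.22), because that pool held its lowest initial value.

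NANOS1, the Pumilio partner at chr14:128962311-128964207, held 2.84, 1.30, 0.53 and 0.62 FPKM in the initial pools. The steatosis pools held 0.26, 0.17, 0.26 and 0.20 FPKM. Steatosis pools were alike, at about 6 to 9.2 fragments each, and initial pools 1 and 2 stood above initial pools 3 and 4. NANOS1 passed the filter on low values, 0.3 FPKM in 4 libraries, only through the initial pools, where it was high. The mean went from 1.32 ± 1.07 to 0.223 ± 0.045 FPKM, which left 16.8%. The log2 difference was -1.87 (SE 0.52). Without initial pool 1 it was -1.43 (SE 0.37) with 27.2% left, so part of its size rested on that pool.

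DCST1, at chr4:94748430-94768322, was scarcely expressed in either state. Initial pools held 0.24, 0.45, 0.17 and 0.29 FPKM. Steatosis pools held 0.02, 0.07 and 0.07 FPKM, with the fourth listed at 0, where 3 fragments would be 0.072 FPKM. These values correspond to about 7.1 to 18.8 fragments per initial pool and to no more than 3 per steatosis pool. Summed over pools, about 49 fragments stood against 7, a ratio of 13.9%, again as a description that leaves out the spread between pools. DCST1 reached 0.3 FPKM in 1 library and so failed the filter on low values that the other 5 passed. Its log2 difference was -1.46 (SE 0.29), and -1.50 (SE 0.35) without initial pool 1, both compressed by the added 0.1 FPKM.

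AGR2, the mucin-folding disulfide isomerase at chr9:86042070-86053893, depended on 1 library. Initial pool 1 held 26.84 FPKM, and initial pools 2, 3 and 4 held 1.96, 0.75 and 0.76 FPKM. The steatosis pools held 0.67, 0.62, 0.39 and 0.60 FPKM. The initial pools spanned a 35.8-fold range, and the lowest of them exceeded the highest steatosis pool by 0.08 FPKM, close to the 0.068 FPKM that 1 fragment was worth. Means of 7.58 ± 12.9 and 0.57 ± 0.124 FPKM gave 7.52% left and a log2 difference of -1.93 (SE 1.19), the largest SE of the 6. Without initial pool 1 the initial mean was 1.16 ± 0.696 FPKM, 49.3% was left, and the difference shrank to -0.80 (SE 0.45). Then 164 tested genes had a more negative difference than AGR2, against 55 for NANOS1, 15 for ETNPPL, 14 for MOXD1 and 6 for PEBP4.

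**Figure D2:**
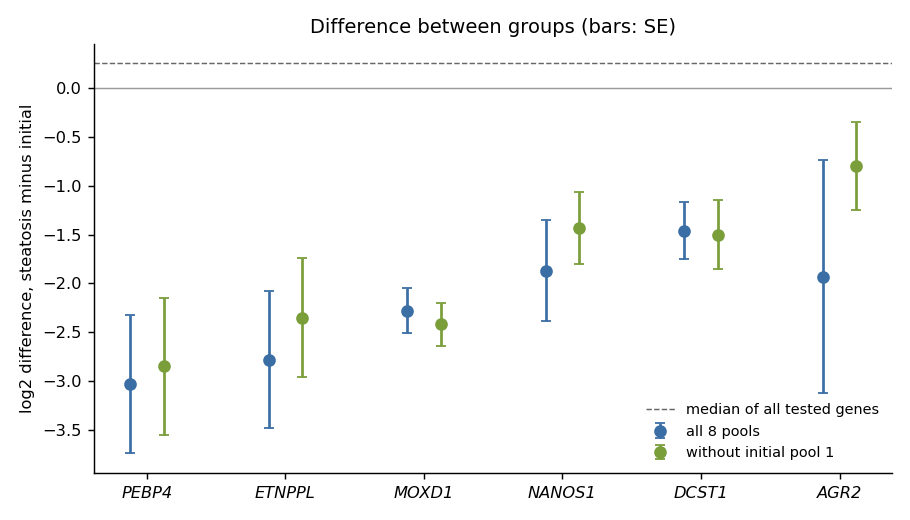
Log2 difference between steatosis and initial state for each gene with its SE, from all 8 pools (blue) and without initial pool 1 (green), with the median of all tested genes as a dashed line. AGR2 moves from -1.93 to -0.80, and PEBP4, MOXD1 and DCST1 hardly move.

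Markers of stomach and muscle were read beside AGR2. In initial pool 1, TFF1, a peptide secreted with gastric mucus, reached 726.95 FPKM, and the gastrokines GKN2 and GKN1 reached 381.38 and 308.92 FPKM. All 3 were listed at 0 in initial pool 4 and in every steatosis pool, and AGR2 was at 0.39 to 0.76 FPKM in those libraries. Initial pool 2 had 1.96 FPKM of AGR2 and a stomach sum of 15.4 FPKM, and initial pool 3 had 0.75 and 29.6 FPKM. The muscle genes ACTA1, CKM and TNNC2 were at 1439.17, 557.11 and 223 FPKM in initial pool 1. The 9 bile duct markers, of a further epithelium that the tissue holds, summed to 43.2 FPKM in that pool, to 16.2 to 21.8 in the other initial pools and to 28.6 to 56.4 in steatosis. The 6 adipose genes summed to 82.3 FPKM there, to 4.96 to 8.68 in the other initial pools and to 46.7 to 58.4 in steatosis. Most of the steatosis sum was FABP4, at 41.86 to 53.59 FPKM, against 44.73 FPKM in initial pool 1. ADIPOQ was at 27.92 FPKM in initial pool 1 but at 0 to 0.04 FPKM in steatosis. The part of these tissues in the AGR2 value of initial pool 1 was not tested.

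**Figure D3:**
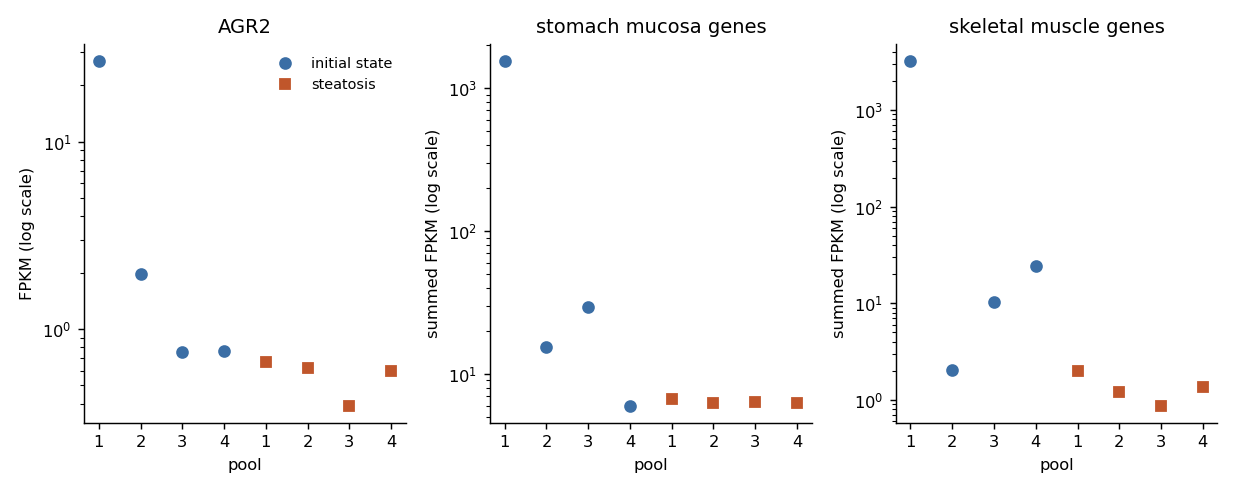
FPKM of AGR2 (left), and summed FPKM of 13 stomach mucosa genes (middle) and 14 skeletal muscle genes (right), in each of the 8 pools on log scales, with initial pools as circles and steatosis pools as squares. Initial pool 1 is highest in all panels, at 26.84, 1550 and 3204 FPKM.

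The same pool was the highest of all 8 libraries for 4 of the 6 genes, namely PEBP4, ETNPPL, NANOS1 and AGR2, whereas MOXD1 was lowest of the initial pools there. Within steatosis, pool 4 was the lowest for PEBP4, ETNPPL and DCST1. Read by pool number, the fall was smallest in pool 3 for 4 of the 6 genes (PEBP4, ETNPPL, NANOS1 and DCST1) and greatest in pool 4 for 4 (PEBP4, ETNPPL, MOXD1 and DCST1). No source used here ties pools of the same number to the same animals, so these are comparisons of libraries. ETNPPL in steatosis was at 51.7% of the initial value in pool 3 and at 6.45% in pool 4. MOXD1 again varied least, at between 13.1 and 18.5% in each pool. AGR2 was at 2.5% in pool 1 but at 78.9% in pool 4.

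After the group means were subtracted, the genes did not all vary together over the 8 libraries. NANOS1 and AGR2 deviated most alike (Pearson r = 0.93), followed by ETNPPL with NANOS1 (r = 0.76) and PEBP4 with ETNPPL (r = 0.74). MOXD1 ran against PEBP4 (r = -0.65), NANOS1 (r = -0.63), AGR2 (r = -0.59) and ETNPPL (r = -0.55). Without initial pool 1, over 7 libraries, r was 0.76 for NANOS1 with AGR2, 0.59 for ETNPPL with NANOS1 and 0.77 for PEBP4 with ETNPPL. For MOXD1 it was then -0.65 with PEBP4 but only -0.22, 0.05 and -0.28 with NANOS1, AGR2 and ETNPPL. Within steatosis alone, over 4 pools, NANOS1 and AGR2 had r = -0.41. The coefficients are descriptions of few libraries, and the points share the scaling of each library.

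Other genes were ranked by their likeness to each of the 6, as Pearson r on log2(FPKM + 0.1) over 8 libraries among 10844 genes, a description in which the difference between groups weighs heavily. For PEBP4 they were VDAC1, HPGD and MEST (r = 0.97 each), and for ETNPPL AAR2, HIGD1A and VCPKMT (r = 0.95 to 0.96). MOXD1 ran with the fibrinogen chain FGG (r = 0.98) and MT3 (r = 0.97), and DCST1 to USO1 (r = 0.98), NCLN and HSPA9 (r = 0.97 each). NANOS1 ran with ARG2, the mitochondrial arginase (r = 0.99), MRPS36 (r = 0.98) and GNL3 (r = 0.97). AGR2 ran with CPS1, the first enzyme of the urea cycle (r = 0.99), DDX56 (r = 0.98) and SYNM (r = 0.97). The genes named for NANOS1 and AGR2 were all highest in initial pool 1, which weighs heavily in their coefficients. CPS1 was at 491.7 FPKM there, at 224.22 to 298.8 in the other initial pools and at 199.84 to 229.14 in steatosis. SYNM was at 5.72 FPKM there and at 0.35 to 0.83 elsewhere.

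Once the group means were removed, the list changed for each gene. AGR2 was then nearest to MUC1, a membrane mucin at 9.79 FPKM in initial pool 1 and at 0.12 to 0.43 FPKM elsewhere, followed by DDX56 and LIPE (r = 0.99 each). NANOS1 was nearest to GDF15, MIER1 and POMGNT2 (r = 0.99 each), and GDF15, a stress-induced cytokine, was at 2.77 FPKM in initial pool 1 against 0.36 to 1.03 in the other initial pools. MOXD1 was nearest to HAAO (r = 0.99), ETFA and ZNF32 (r = 0.96 each), DCST1 to GFM2 (r = 0.98), SDCBP (r = 0.97) and DLD (r = 0.96), PEBP4 to POLR2I, SAP30 (r = 0.95 each) and NRG4 (r = 0.92), and ETNPPL to C4H1orf54 (r = 0.94), NPM3 and LPCAT4 (r = 0.93 each).

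Genes working in the same pathways as the 6 were tested next. Over 7 lists of related genes, 104 passed the filter and were tested within a fit of all 13175 genes (limma, with Benjamini-Hochberg adjustment over all of them, called where the adjusted p was below 0.01 and the fold exceeded 1 on the log2 scale). None of the 104 was called lower, against 0.334% of all tested genes, and 4 were called higher, that is 3.85% against 6.01%. At an unadjusted p under 0.05, limma placed 12 of the 104 (11.5%) below 0 and 36 (34.6%) above, against 4.13% and 37.8% of all tested genes, and 8 of the 12 came from the fasting list described last. After median ratio scaling, which brings the median of all genes to -0.01, all calls split into 84 lower and 408 higher, against 44 and 792. The median log2 fold change was 0.15 over the lists and 0.25 over all tested genes. The count of lower genes depended on the scaling and on 1 library, since TOB1 and PCK1 were called lower after upper quartile or median ratio scaling and 5 genes were without initial pool 4, TOB1 and PCK1 among them.

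Around ETNPPL, none of 17 tested genes of ethanolamine and choline phospholipids was called lower and 1 was called higher. CHKA, the kinase that phosphorylates choline and ethanolamine at the start of the route, was at 9.82, 12.02, 12.62 and 6.63 FPKM initially, and steatosis pools held 21.95, 25.33, 31.5 and 24.32 FPKM. The groups did not overlap, and the log2 fold change from limma was 1.35 (SE 0.20, adjusted p = 0.0012), and 1.34 (adjusted p = 0.00299) without initial pool 1. PHYKPL, the closest relative of ETNPPL, had a log2 fold change of 0.40 (limma, adjusted p = 0.0882), opposite in sign to ETNPPL and short of the threshold. The median of the list was 0.30.

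Among the 9 genes of the PEBP family and the RAF cascade none was called in either direction. PEBP1, the relative of PEBP4, was far more abundant, at 140.85 to 166.2 FPKM initially and at 225.65 to 264.07 FPKM after the diet. Its log2 fold change was 0.70 (limma, adjusted p = 6.37e-04), within the limit on size, and so was that of the kinase MAPK3, 0.71 (adjusted p = 0.00646).

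Copper enzymes and copper handling genes were read beside MOXD1, with 20 tested, 0 called lower and 2 called higher. LOXL1, which cross-links elastin, had a log2 fold change of 1.59 (limma, adjusted p = 0.00707), and the low-affinity copper transporter SLC31A2 had 1.06 (adjusted p = 0.00236). Neither call remained without initial pool 1, where the values were 1.56 (adjusted p = 0.0153) and 0.96 (adjusted p = 0.00538). Both calls were also lost after upper quartile scaling, after median ratio scaling (1.35, adjusted p = 0.0182, and 0.79, adjusted p = 0.0251) and with a pseudocount of 1. SLC31A2 also lost its call without steatosis pool 2, and LOXL1 lost it without any of the other libraries apart from steatosis pool 3. DBH itself, after which MOXD1 is named, was at most at 0.02 FPKM in any library and was not tested.

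The 17 tested Pumilio and CCR4-NOT deadenylase genes, the machinery with which NANOS1 acts, gave no call, with a median of 0.14. TOB1, an antiproliferative protein that binds the deadenylase, was at 93.04, 64.8, 81.58 and 37.77 FPKM initially and at 24.65, 34.96, 35.22 and 32.42 FPKM on the steatotic diet, without overlap. Its log2 fold change was -1.06 (limma, adjusted p = 0.0128), and -0.89 (adjusted p = 0.0262) without initial pool 1, while that of BTG1, of the same family, was 0.54 (adjusted p = 0.0058). NANOS2 and NANOS3 were not analysed here.

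A relative of DCST1 was called higher. DCSTAMP, the protein of macrophage and osteoclast fusion whose domain DCST1 shares, was listed at 0 in 3 initial pools and at 0.03 FPKM in the other, and reached 0.51, 0.99, 0.97 and 0.47 FPKM in steatosis (limma, log2 fold change 2.90, SE 0.30, adjusted p = 1.82e-04). It passed the filter on low values only through the steatosis pools, and its fold is set by the added constant: with 1 FPKM it was 0.77, too small for a call, and with 0.01 FPKM it was 5.64. OCSTAMP, with 0 to 0.06 FPKM initially and 0.13 to 0.26 FPKM after the diet, and DCST2, with 0 and 0 to 0.06 FPKM, were below the filter. In the fit without a filter OCSTAMP was called higher (limma, log2 fold change 1.15, SE 0.19, adjusted p = 0.00442). Of the 8 tested genes of this list and of STAT2 signalling 1 was called higher, and STAT2 had a log2 fold change of 0.06 (adjusted p = 0.697). The 10 macrophage markers summed to 882.4 to 1121 FPKM in the initial pools and to 1158 to 1314 in steatosis. Of these 10, limma called 2 higher, CD68 (log2 fold change 2.01, adjusted p = 7.60e-04) and MARCO (3.33, adjusted p = 6.19e-05), named after their values were seen, and 0 lower, while the abundant CD14 and CD5L had -0.19 and -0.34. The study reports CD68 from a different gene entry, with lower levels and a larger fold change. The part of macrophages in the DCSTAMP value was not tested.

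For AGR2, none of 18 tested disulfide isomerases and endoplasmic reticulum stress genes was called, and their median was 0.04. PDIA5 had the largest log2 fold change, 0.63 (limma, adjusted p = 0.00561), and TMX2 and P4HB had -0.35 each. AGR3, the closest relative of AGR2, was not analysed here.

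A last list held fasting and glucocorticoid response genes, conditions under which ETNPPL is known to be induced. Of 15 tested, 12 had a log2 fold change below 0, against 21.3% of all tested genes, and the median was -0.78, yet limma called none. SDS and TAT, enzymes of amino acid breakdown, had -1.28 (adjusted p = 0.0519) and -1.22 (adjusted p = 0.0562), or -1.08 and -0.84 without initial pool 1. The 3 genes above 0 were PDK4 with 0.59 (limma, adjusted p = 0.034), FGF21 with 0.35 (adjusted p = 0.469) and ANGPTL4 with 0.06 (adjusted p = 0.798). Initial pool 1 was the highest library for 10 of the 15, as it was for ETNPPL, and for 1263 of all 13175 tested genes. The median was -0.61 without that pool (12 of 15 below 0), and -0.98 without initial pool 4 (13 of 15). After median ratio scaling it was -1.04 with 13 of 15 below 0, against 51.3% of all tested genes. A link between this list and the fall of ETNPPL was not tested.

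**Figure D4:**
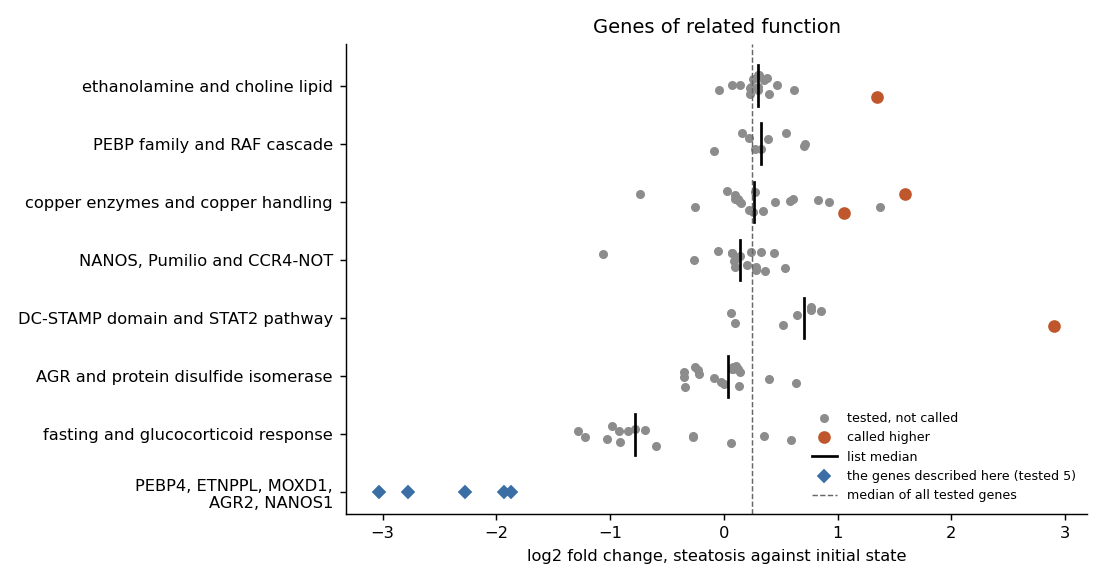
Log2 fold change of each tested gene in 7 lists of related genes, with genes called higher in orange, list medians as black bars and the 5 described genes that passed the filter as blue diamonds for orientation. The list medians lie between -0.78 and 0.70, to the right of all 5 diamonds.

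The neighbours on the chromosome were examined after the values had been seen. Of 12 flanking genes 9 were tested. None was called lower and 2 were called higher, against 0.334% and 6.01% of all tested genes. Both lie beside PEBP4: EGR3, with a log2 fold change of 1.52 (limma, adjusted p = 0.00815), and RHOBTB2, with 1.33 (adjusted p = 0.00101). EGR3 was scarce, with means of 0.152 FPKM initially and 0.58 FPKM in steatosis. Its initial mean was below the 0.3 FPKM of the filter on low values, and its fold depends on the added 0.1 FPKM. TSPAN13, 8711 bases from AGR2, had -0.67 (adjusted p = 7.73e-04), within the limit on size. EIF3A, 3437 bases beyond NANOS1, had 0.18 (adjusted p = 0.397). DCST1 lies between ADAM15 (336 bases away, log2 fold change 0.46, adjusted p = 0.175) and DCST2 (210 bases away), and since strand-specific counting is not given in the sources used here, the few fragments of DCST1 carry that uncertainty.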

How the data were processed

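Livers of 8 pools (4 per group, 2 pigs per pool) were sequenced after poly-A selection. The authors filtered the reads, mapped them with HISAT2 2.0.4 to Sus scrofa 11.1, assembled transcripts with StringTie 1.0.4, estimated expression with Bowtie2 2.2.5 and RSEM 1.2.12, and deposited FPKM values, with no stated scaling between libraries. RSEM shares ambiguous reads between similar genes. From the 4 deposited comparisons of single pools, which hold fold changes and Poisson-based FDR values, only gene lengths were used. Coordinates came from RefSeq, assembly Sscrofa11.1.

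A minimum of 0.3 FPKM in 4 or more of the 8 libraries left 13175 genes. Their log2(FPKM + 0.1) values were fitted by group with limma 3.58.1 (R 4.3.3), allowing the prior variance to follow the mean level, and p values were adjusted by the Benjamini-Hochberg method. A gene was called where its adjusted p was below 0.01 and its log2 fold change exceeded 1 in size. Fold changes on this scale understate the change of low genes. On simulated data for this comparison, with 13051 genes, 185 of 196 changed genes were found with the right sign and 0 unchanged genes were called. The bearing of this result on the real libraries was not tested. In the real data, the alternatives described below gave 26 to 84 genes called lower and 395 to 813 called higher. Tables and plots were made in Python 3.11.15 with numpy 2.4.6, pandas 2.3.3 and matplotlib 3.10.9. The differences and SEs of the 6 genes are those of the group means, each SE from the SDs of the pools.

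FPKM times gene length falls in steps that correspond to 1 fragment, from which relative depth and approximate fragment numbers were obtained. Errors are SDs over pools, which hold different pigs within a group.

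The 6 genes, the 7 lists of related genes and the 11 marker lists were chosen with earlier results of these data known. From each related list the called genes were named, at most 4, or otherwise the 2 tested genes with the largest absolute log2 fold change, and relatives of the 6 genes wherever listed. PCK1, PDK4, FGF21, ANGPTL4, STAT2, CD68, MARCO, CD14, CD5L and the flanking genes were named after their values were seen. From marker lists at most the 3 genes highest in initial pool 1 were named, and MUC1 as a gene like AGR2. Likeness was searched among tested genes with an assigned symbol and a mean of at least 1 FPKM in a group, and the 3 most alike were named, apart from a few genes not reported here.

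The fit and the SEs are unpaired. The study names the same animals for both groups, but no source used here ties pools of the same number to each other. Their deviations from the group means correlated at 0.16, 0.35, 0.32 and 0.25 for pools 1 to 4, and a paired fit, blocked by pool number, was tried as an alternative. Further scalings, pseudocounts and filters were tried too, and each library was left out in turn.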

Additional observations from a re-analysis of the deposited data

Results flagged for a closer look

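Within each group of 4 pools, the gap between the highest or lowest pool and its nearest neighbour was compared with Dixon's 95% critical value for 4 values. This was done for the 6 genes and 11 marker lists in both groups, 34 groups of values in all, of which chance alone flags about 1 in 20. The values that stood out were 6. AGR2 at 26.84 FPKM in initial pool 1 was the only one among the 6 genes. The summed FPKM of stomach mucosa (1550), skeletal muscle (3204) and adipose tissue (82.3) genes stood out in the same library. In steatosis, the stomach mucosa sum of 6.7 FPKM in pool 1 and the macrophage sum of 1314 FPKM in pool 4 lay apart from the other pools by small amounts, the others being at 6.28 to 6.35 and at 1158 to 1175 FPKM. No further value of PEBP4, ETNPPL, MOXD1, NANOS1 or DCST1 was set apart in this way in either group.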

How the results depend on the processing

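The 6 genes were chosen for their fall in these libraries, so that its sign is no sign of stability, and neither filters nor the block can change their group means. Their size moved most with the pseudocount, which compresses or stretches low values by construction: with 1 FPKM the log2 differences of PEBP4, MOXD1, NANOS1 and DCST1 were -1.44, -1.09, -0.82 and -0.30, and with 0.01 FPKM those of PEBP4, MOXD1 and DCST1 were -4.11, -2.60 and -2.91. Leaving out 1 library moved AGR2 between -2.46 and -0.80, the latter without initial pool 1.

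Among all tested genes 792 were higher and 44 lower. With upper quartile scaling these counts were 439 and 74, with median ratio scaling 408 and 84, and with a pseudocount of 1 the higher genes were 395. Both scalings move the median of all genes from 0.25 to 0.03 and -0.01. Of the related genes, 4 were higher and 0 lower in the main comparison, 2 and 2 with either of those scalings, and 1 was higher with a pseudocount of 1. With each library left out in turn, the higher genes were 625 to 778, the lower genes 26 to 50 (26 without steatosis pool 4, 28 without steatosis pool 2), the related genes higher 2 to 4 (2 without initial pool 1 or steatosis pool 2) and those lower 0 to 5 (5 without initial pool 4). The cause of these shifts between libraries was not tested. With the pool number as a replicate block, 785 genes were higher, 57 lower, and 4 and 0 of the related genes, and no call of a related gene changed.

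Depth limits PEBP4, NANOS1, DCST1 and AGR2 most, whose steatosis pools hold 12.4 fragments or fewer. Those of MOXD1 hold little more, about 13.7 to 20.5 fragments. With 4 pools of 2 pigs per group, spread between single animals could not be seen. Diet, age and sampling changed together and cannot be told apart.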
